A study of Danio rerio with 29 samples.

Results

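Neuropeptide precursor genes encode the small secreted proteins from which neurons and gut endocrine cells cut signalling peptides. They were followed here in adult zebrafish with mutations in ccser1. A list of 60 names of hypothalamic, hindbrain and gut peptide precursors was matched to the gene symbols of both count tables, with letter case ignored and a final a or b allowed to be absent. In all, 51 genes of the 32520 in each table were found, 44 by the exact name and 7 listed without the final letter (CCK, CRH, PYY, nppc, PENK, UTS2 and ADCYAP1). The names uts1, ucn3l, cart1, cart2, cart3, galn, sst1.1, sst3 and sst5 matched no symbol. Symbols are printed as the name table gives them, many as the human symbol in capitals.

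The 29 RNA-seq libraries came from whole brains (11) or from whole bodies with the brain taken out (18). Fish were wild type (WT), homozygous for the CRISPR/Cas-9 allele labelled CCSER1_P471 (M), or homozygous for the allele labelled CCSER1_S48Y* (S). All were adults, and the WT controls came from the heterozygous incross, of which line is not labelled. There were 3 WT, 4 M and 4 S brain libraries and 6 body libraries of every genotype. The labels used here give no sex, age in days or pooling, and do not say whether libraries were separate animals; p-values then measure only the spread between these libraries. In tissue RNA, fewer cells making a peptide and less RNA per cell cannot be told apart.

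A neuropeptide precursor enters dense-core granules, where prohormone convertases cut it and further enzymes trim and amidate the products. The peptides then act on receptors that are mostly coupled to G proteins. In fish as in mammals, hypothalamic peptides set feeding, stress, reproduction and arousal. The urotensin-related peptides Urp1 and Urp2 are made in zebrafish by neurons that touch the cerebrospinal fluid in the spinal cord and hindbrain, and they are known for keeping the body axis straight.

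Levels are in CPM, the counts scaled to a common library total within a tissue, and group values are mean ± SD. Fold changes are on the log2 scale, with their standard errors (SE). Adjusted p-values are from edgeR's quasi-likelihood test with Benjamini-Hochberg adjustment over all genes of the fit, and a gene is called where its adjusted p is under 0.05. Total counts ran from 7445865 to 9521735 in brains and from 9450422 to 11674882 in bodies. The targeted gene, listed as CCSER1, was at 4.61 ± 1.21 CPM (n = 6) in WT bodies, 2.85 ± 0.753 in M and 2.83 ± 0.972 in S. It was called lower in both (adjusted p = 0.0341 in M and 0.0299 in S), where 33.1% and 36.8% of all genes tested were called. In brains it averaged 9.40 ± 1.79 CPM over 3 WT, 8.38 ± 1.54 CPM over 4 M and 10.7 ± 2.17 CPM over 4 S libraries, and was not called in either line.

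Some libraries stood apart. WT brain 3 had little or no transcript of the peptide genes PMCH, pmchl and agrp, but the highest NPY (124 CPM) and GAL (30.9 CPM) of all brains. It also had the lowest summed Hox genes, the genes that pattern the hindbrain and spinal cord, at 21.1 CPM against 52.9 to 165 in the other brains. S brain 3 held 3850 CPM of summed epidermis markers, against 12.3 to 553 in the other brains. Of the bodies, 5 had under 1 CPM of the pituitary growth hormone gene gh1 (3 WT, 2 M and no S). These 5 held 208 to 406 CPM of summed neuron markers, against 457 to 1082 CPM in the other 13. Summed ovary markers ran from 1169 to 7150 CPM in WT bodies, from 1.31 to 82.8 in M and from 1.73 to 785 in S.

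Brains of both mutant lines contained less transcript of the urocortin gene UCN, the granin genes vgf and scg2b and the somatostatin gene sst1.2, and more of the agouti gene asip2b. Brains of M had almost no urp2. In the main fit CRHBP and gnrh2 were called lower in M only and GAL in S only, but none of them was called between M and S. Some alternative fits also called gnrh2 in S, or GAL between M and S. All M brains lay above all S brains in GAL. All S brains also lay below all WT brains in gnrh2. Of the 44 members that passed the filter on low counts in brains, 8 were called in M against WT, 1 higher and 7 lower. Over all genes tested, 10.1% were called in that comparison, 4.93% higher and 5.19% lower. In S against WT 6 were called, 1 higher and 5 lower, where 10.3% of all genes tested were called, 5.59% higher and 4.73% lower. Between M and S 3 were called, all lower in M, where 10.1% of all genes were called, 4.64% higher and 5.41% lower. The M and S comparisons share the same WT libraries. The median log2 fold change over the tested members was -0.19 in M and -0.23 in S, against 0.01 and 0.00 over all genes tested. The members were chosen with earlier results of these data known. Their counts and medians beside those of all genes, here and below, are therefore no independent test.

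**Figure D1:**
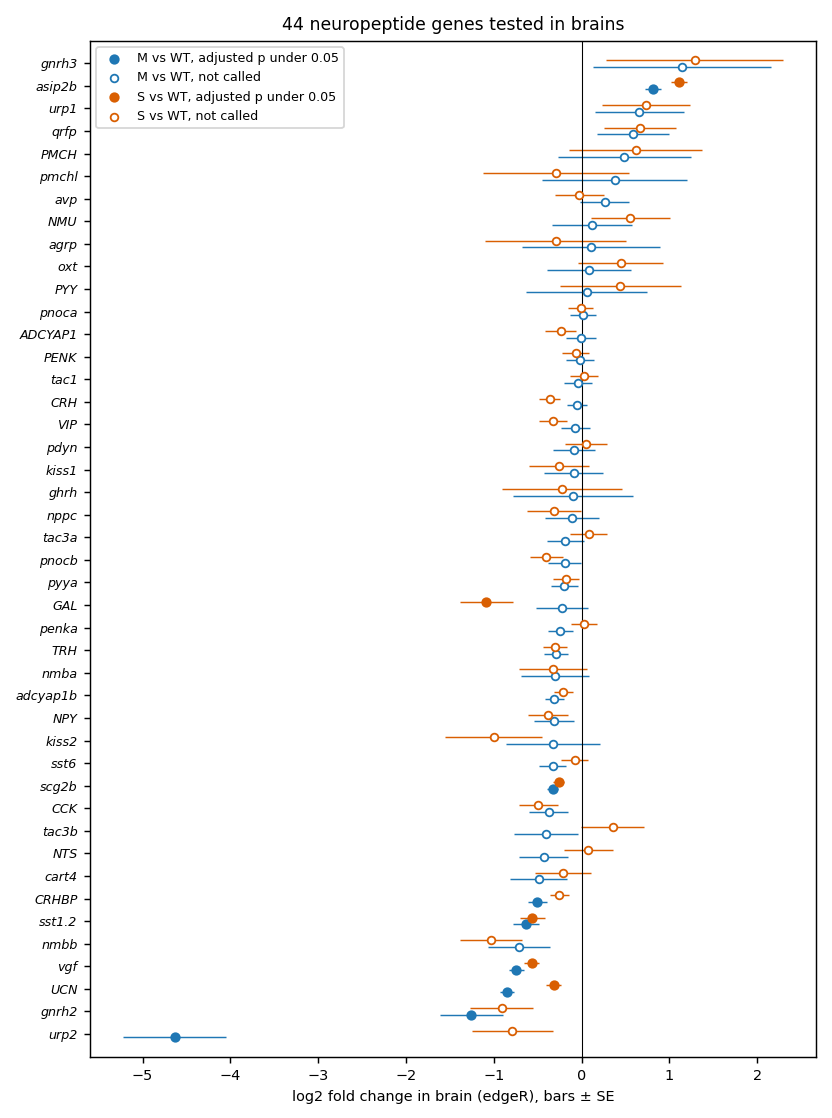
Log2 fold change of the 44 neuropeptide genes tested in brains, M against WT in blue and S against WT in orange, with bars of ± 1 SE; filled points have an adjusted p under 0.05. The point for urp2 in M lies at -4.63, far to the left of every other gene, and asip2b is the filled point to the right of 0 in both lines.

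Among the urotensins, urp2 set the lines apart. It was at 27.6, 6.95 and 20.6 CPM in the 3 WT brains, at 1.42, 0.638, 0.522 and 0.335 CPM in the 4 M brains, and at 17.4, 9.73, 7.90 and 7.72 CPM in the 4 S brains. Every M brain was below every WT and every S brain, while the S brains lay within the WT range. The M brains rest on 12, 6, 4 and 3 counts, and their mean of 0.730 CPM was 3.97% of the WT mean of 18.4 CPM. Against WT urp2 fell by 4.63 in M (SE 0.587, adjusted p = 0.0015), and against S it was lower in M, at -3.84 (SE 0.574, adjusted p = 0.00328). In S against WT it was at -0.79 (SE 0.460, adjusted p = 0.317).

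The related gene urp1 was at 5.01, 5.92 and 0.586 CPM in WT brains, 4.75 to 7.71 CPM in M and 4.31 to 7.22 CPM in S. Apart from the low value of WT brain 3 the groups overlapped, and urp1 was not called. Its log2 change was 0.66 in M (SE 0.506, adjusted p = 0.453); S gave 0.73 (SE 0.505, adjusted p = 0.399). The channel genes PKD2L1 and pkd1l2a, which mark the fluid-contacting neurons, were not called in M brains either, at -0.20 (SE 0.313, adjusted p = 0.74) and -0.67 (SE 0.679, adjusted p = 0.585). Summed over this pair, the markers were at 9.37 to 19.4 CPM in WT, 8.71 to 13.1 CPM in M and 6.56 to 17.5 CPM in S. Summed Hox genes were at 110, 165 and 21.1 CPM in the WT brains, 100, 115, 52.9 and 75.1 CPM in M and 97.2 to 117 CPM in S, and the groups overlapped. WT brain 3 had 20.6 CPM of urp2 with the lowest Hox sum. The other urotensin genes, UTS2 and uts2a, did not pass the filter in brains: UTS2 reached at most 0.261 CPM, and uts2a was at 0 counts in every brain but S brain 2.

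Of the corticotropin-releasing hormone (CRH) family, UCN and CRHBP were lower in M. UCN is the urocortin gene, whose peptide acts on CRH receptors; in the supplied RefSeq table ucn stands as a synonym of uts1. It was at 81.0, 81.5 and 91.8 CPM in WT brains, 47.6, 43.7, 48.7 and 48.0 CPM in M, and 69.7, 71.4, 59.9 and 70.5 CPM in S. The 3 groups did not overlap, with M lowest and S between M and WT. UCN fell by 0.85 in M (SE 0.0829, adjusted p = 3.55e-05). In S it fell by 0.32 (SE 0.0823, adjusted p = 0.0236). The log2 change of M against S was -0.53 (SE 0.0777, adjusted p = 0.000919). The S call was lost without WT brain 3 and without S brain 3, where the adjusted p reached 0.119.

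CRHBP, the secreted protein that binds CRH and urocortin, was at 68.1, 91.4 and 81.2 CPM in WT brains, 54.7, 59.9, 60.1 and 51.5 CPM in M, and 71.9, 74.9, 63.8 and 58.8 CPM in S. All M brains lay below all WT brains, and S overlapped with both. It fell by 0.50 in M (SE 0.108, adjusted p = 0.0102), while the S brains gave -0.25 (SE 0.108, adjusted p = 0.153). Leaving out WT brain 2 ended the M call (adjusted p = 0.0538). CRH itself, which starts the stress axis, was at 30.1 to 32.9 CPM in WT, 25.2 to 33.1 in M and 21.3 to 27.1 in S, and was not called (-0.06 in M, adjusted p = 0.812; -0.37 in S with SE 0.117, adjusted p = 0.0598). The gene listed as crha did not pass the filter.

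Both granins among the members, vgf and scg2b, fell in both lines. Granins are abundant acidic proteins of the dense-core granule that are also cut into peptides. The gene vgf was at 278, 352 and 303 CPM in WT brains, 201, 182, 181 and 178 CPM in M, and 223, 185, 215 and 216 CPM in S. All mutant brains lay below all WT brains. It fell by 0.74 in M (SE 0.0861, adjusted p = 0.000144), and the S brains showed a fall by 0.57 (SE 0.0860, adjusted p = 0.00124). The secretogranin II gene scg2b, the precursor of secretoneurin, was at 1021, 933 and 963 CPM in WT, 847, 757, 782 and 706 CPM in M, and 823, 794, 808 and 825 CPM in S, again with no overlap between WT and either line. It fell by 0.33 in M (SE 0.0623, adjusted p = 0.00477), and the S brains showed a fall by 0.26 (SE 0.0623, adjusted p = 0.0174), and the S call was lost without WT brain 1 or WT brain 3 (adjusted p up to 0.0519). Neither granin was called between M and S. Summed neuron markers were at 11463 to 12717 CPM in WT brains, 10992 to 11588 CPM in M and 10915 to 11554 CPM in S; of their 15 genes, 1 was called higher and 2 lower in M, and 1 higher and 3 lower in S. The part of the neuron markers in the granin result was not tested.

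Of the somatostatins, peptides that inhibit hormone release, sst1.2 was at 25.7, 23.4 and 17.0 CPM in WT brains, 15.1, 15.5, 12.7 and 13.5 CPM in M, and 15.1, 15.4, 14.0 and 15.1 CPM in S. Every mutant brain lay below every WT brain, with WT brain 3 nearest to them. It fell by 0.63 in M (SE 0.146, adjusted p = 0.0145), and the S brains showed a fall by 0.56 (SE 0.146, adjusted p = 0.0245). Leaving out WT brain 1 or 2 ended both calls, and leaving out S brain 3 or 4 ended that of S (adjusted p up to 0.0944). The second somatostatin, sst6, was not called, with -0.08 in S, and -0.33 in M (SE 0.155, adjusted p = 0.193).

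**Figure D2:**
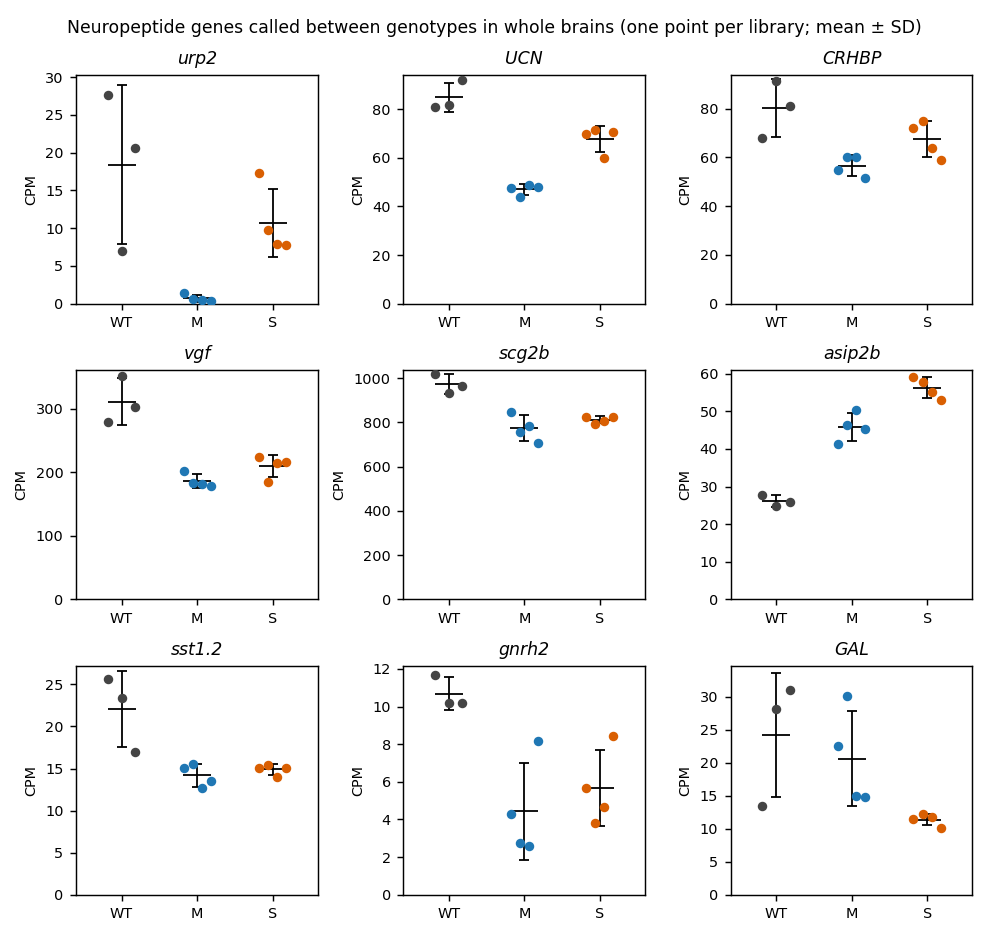
CPM of the 9 neuropeptide genes called between genotypes in brains, 1 panel per gene, with 1 point per library (WT black, M blue, S orange) and the mean ± SD; every axis starts at 0. M brains lie at or below 1.42 CPM for urp2, and the 3 groups are separate for UCN and asip2b.

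Among the feeding and pigment peptides, asip2b was the one member called higher. It belongs to the agouti family, which blocks melanocortin receptors, and in zebrafish it is made in the pineal gland. It was at 27.9, 24.8 and 25.8 CPM in WT brains, 41.4, 46.4, 50.4 and 45.4 CPM in M, and 59.3, 57.7, 55.0 and 53.2 CPM in S. The 3 groups did not overlap, with S highest. It rose by 0.81 in M (SE 0.0918, adjusted p = 0.00012). In S the rise was 1.105 (SE 0.0920, adjusted p = 9.74e-06). M against S gave -0.29 (SE 0.0812, adjusted p = 0.0335), a call lost without M brain 1 or 2 or S brain 1, 2 or 3 (adjusted p up to 0.104). The sum of 7 pineal photoreceptor genes, a list written after values had been seen, was at 14.2 to 19.0 CPM in WT, 79.0 to 120 CPM in M and 72.1 to 127 CPM in S. This sum was higher in both lines than in WT, but M and S overlapped in it, unlike in asip2b. The part of the pineal genes in the asip2b result was not tested.

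The galanin gene GAL, whose peptide promotes feeding and sleep, was at 13.5, 28.1 and 30.9 CPM in WT brains, 22.5, 30.1, 15 and 14.8 CPM in M, and 11.4, 12.2, 11.7 and 10.1 CPM in S. The S brains were all below WT, though WT brain 1 was close to them. GAL fell by 1.09 in S (SE 0.300, adjusted p = 0.0423), and M gave -0.23 (SE 0.294, adjusted p = 0.681). The S call was lost in 7 of the 11 fits that left out 1 brain: without WT brain 2 or 3, without M brain 1, or without any 1 of the S brains (adjusted p up to 0.165). Every M brain lay above every S brain. Between M and S GAL was not called in the main fit. It was called there with DESeq2, with only the groups compared, without WT brain 1 and without M brain 4. NPY, agrp, cart4, PMCH, pmchl, PYY, pyya and qrfp, also of this group, were not called in either line, with log2 changes from -0.49 for cart4 to 0.59 for qrfp in M. The gene spx did not pass the filter.

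Of the releasing peptides, gnrh2, which is made by midbrain neurons, was at 11.7, 10.2 and 10.2 CPM in WT brains, 4.27, 2.76, 2.61 and 8.15 CPM in M, and 5.70, 3.83, 4.67 and 8.46 CPM in S. All mutant brains lay below the WT brains, with M brain 4 and S brain 4 nearest. It fell by 1.26 in M (SE 0.359, adjusted p = 0.0415), and S gave -0.91 (SE 0.355, adjusted p = 0.12). The M call was lost in 8 of the 11 fits that left out 1 brain, all but those without M brain 4 or S brains 2 or 4 (adjusted p up to 0.0999). With the replicate number as a block the adjusted p in M was 0.00174. In S gnrh2 was called with that block, with only the groups compared and without M brain 4. TRH, ghrh, gnrh3, kiss1 and kiss2 were not called; gnrh3 ran highest in S brain 3, at 9.69 CPM against 0.423 to 5.0 CPM in the other 10 brains, and S brain 3 is the brain with the most epidermis marker.

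The remaining members tested in brains showed no call in either line. Among the nonapeptides oxt and avp the log2 change was 0.09 (SE 0.479) and 0.26 (SE 0.281) in M, and 0.44 and -0.02 in S. The opioid precursors PENK, penka, pdyn, pnoca and pnocb ran from -0.24 (penka) to 0.02 (pnoca) in M and from -0.40 (pnocb) to 0.05 (pdyn) in S. The tachykinins tac1, tac3a and tac3b ran from -0.40 to -0.05 in M and from 0.02 to 0.35 in S. Of the VIP and PACAP genes, adcyap1b was at 596 to 722 CPM in WT and 402 to 573 CPM in M (-0.31, SE 0.108, adjusted p = 0.086), while ADCYAP1 and VIP were at -0.01 and -0.07 in M. The natriuretic gene nppc was at -0.10 in M and -0.31 in S. The brain and gut peptides CCK, NTS, NMU, nmba and nmbb ran from -0.71 (nmbb, SE 0.350, adjusted p = 0.214) to 0.12 (NMU) in M, and nmbb was at -1.04 in S (SE 0.354, adjusted p = 0.0767). HCRT, the arousal peptide hypocretin, did not pass the filter, at 0.257 to 0.820 CPM in WT and 0.112 to 0.653 CPM in M, and at 0 counts in 3 of 4 S brains. The genes grp and tac4 did not pass it either.

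**Figure D3:**
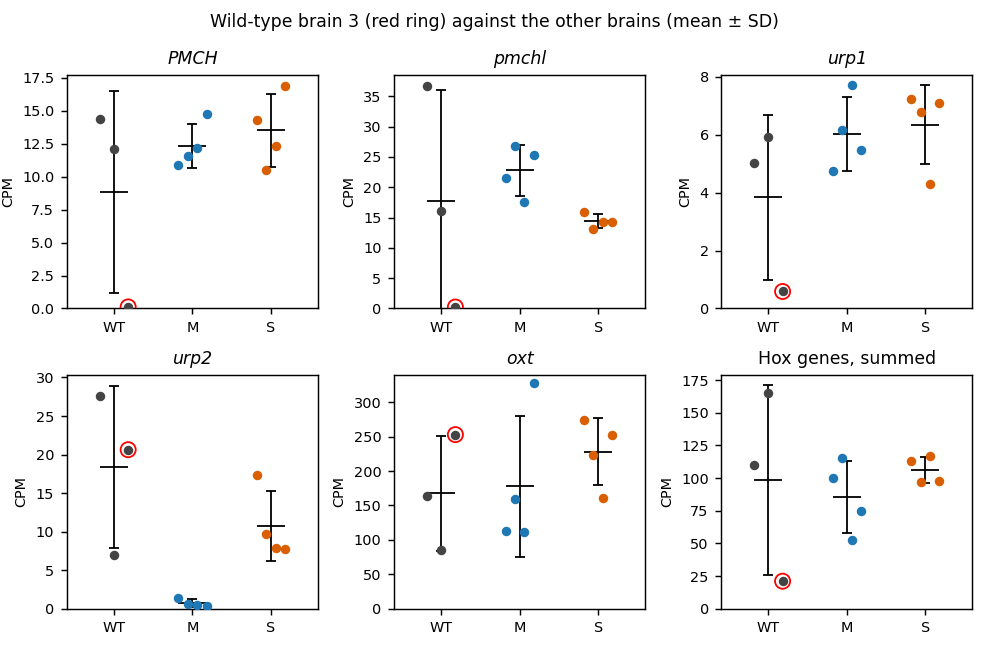
CPM per brain library of PMCH, pmchl, urp1, urp2, oxt and the summed Hox genes, with mean ± SD; the red ring marks WT brain 3. It is the lowest brain for PMCH, pmchl, urp1 and the Hox sum, but lies within the range of the other WT brains for urp2.

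WT brain 3 bears on the uncalled feeding peptides. It held 0.117 CPM of PMCH, the melanin-concentrating hormone gene, against 10.5 to 16.9 CPM in the other 10 brains. The related pmchl was at 0.234 CPM there and at 13.1 to 36.7 CPM elsewhere. The gene agrp, whose peptide drives feeding, was at 0 counts there and at 0.423 to 2.19 CPM elsewhere. With 1 of 3 WT brains so low, the log2 change of PMCH in M was 0.49 with an SE of 0.759 and that of pmchl 0.37 with an SE of 0.828, so changes of that size were not detectable. Markers of the hypothalamus summed to 53.7 to 66.9 CPM over all brains, with no brain standing apart in the sum. WT brain 3 had 2 of these 9 markers at 0 counts, and no other brain had any at 0. Similarly, WT brain 2 held 0.515 CPM of PYY against 3.13 to 12.1 CPM in the others.

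In wild-type fish most members were more abundant in brain than in the rest of the body. Of 46 members that passed the filter in the fit of all 29 libraries, 42 were called, 39 higher in brain and 3 higher in body. Over all genes tested 79.7% were called, 37.9% higher in brain and 41.7% lower. The median log2 difference over the members was 3.37, against -0.12 over all genes tested. Of the 46, many passed the filter in brains but not in bodies. They were avp, NTS, nmba, nmbb, CRH, PMCH, agrp, cart4, qrfp, ghrh, gnrh2, gnrh3, kiss1, kiss2, tac3b and urp2. The filter thus favours a brain excess for these genes, and their folds stand over low body values. The 39 calls toward brain and the median of 3.37 rest in part on this. The 5 largest differences toward brain were those of oxt, the oxytocin gene (7.54, SE 0.898), gnrh2 (6.68, SE 0.707), avp, the vasopressin gene (6.66, SE 0.731), NPY (6.33, SE 0.703) and kiss1 (6.24, SE 0.724). In WT bodies avp was at 0 counts in 5 of 6 libraries. The marker urp2 differed by 5.49 (SE 0.506, adjusted p = 1.48e-10).

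The 3 members higher in body were PYY, grp and uts2a. PYY, a satiety hormone of the gut, was at 5.69 ± 5.87 CPM (n = 3) in WT brains and 11.5 ± 1.45 CPM (n = 6) in WT bodies, a log2 difference of -1.51 (SE 0.427, adjusted p = 0.00221). The gastrin-releasing peptide gene grp differed by -2.15 (SE 0.810, adjusted p = 0.0174). The urotensin gene uts2a was at 0 counts in all WT brains and at 0.814 CPM in WT bodies, at least 6.67-fold higher there if the WT brains are set to 3 counts in all. In contrast to most members, asip2b was close in the tissues, at 26.2 ± 1.55 CPM in WT brains and 20.3 ± 9.70 CPM in WT bodies (-0.13, SE 0.245, adjusted p = 0.622). Leaving out the 5 bodies low in gh1 ended the calls for grp, uts2a and agrp; leaving out WT brain 2 ended those of agrp and grp, and leaving out WT body 5, WT body 6 or S body 2 ended that of uts2a. The fit of WT libraries alone ended those of PMCH, agrp, gnrh3, kiss2, qrfp and uts2a.

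**Figure D4:**
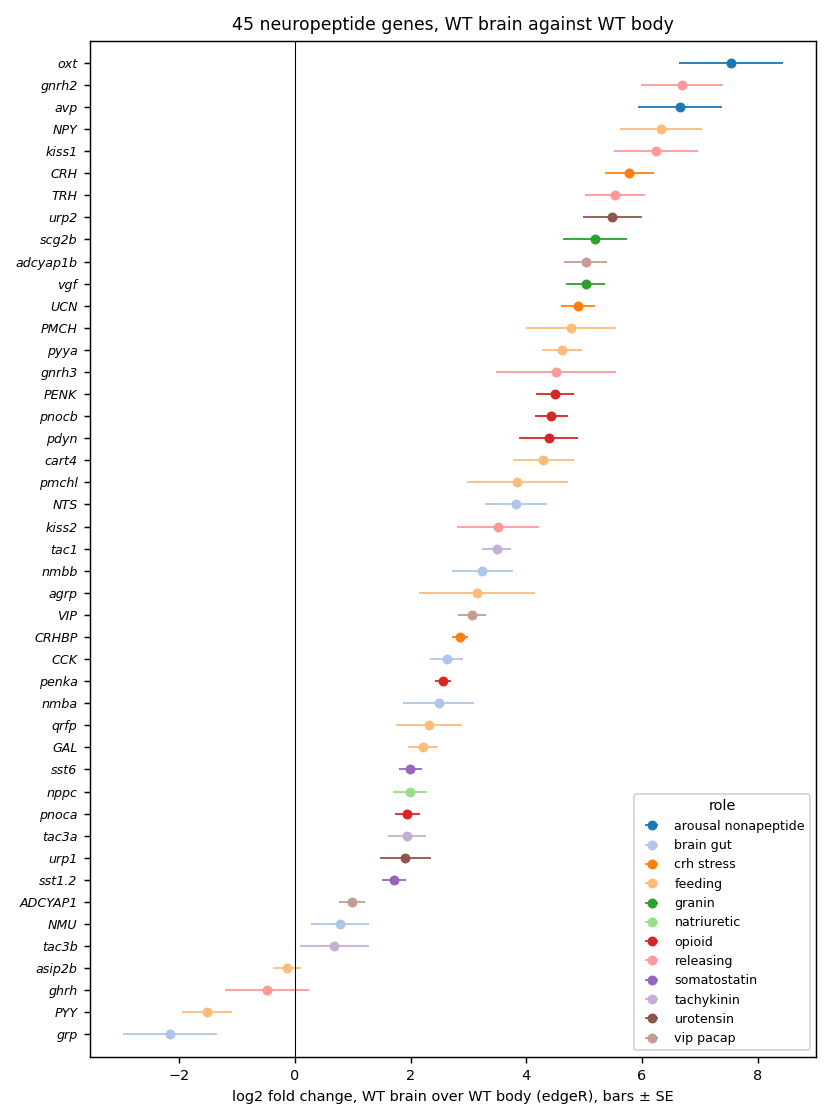
Log2 difference of WT brain over WT body for 45 neuropeptide genes (uts2a, at 0 counts in WT brains, is left out), with bars of ± 1 SE and colours for the members' roles. Nearly all points lie to the right of 0, from oxt at 7.54, while PYY and grp lie to the left at -1.51 and -2.15.

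In bodies the members were compared on a background in which much of the transcriptome differed. Of 29 members tested, 3 were called in M against WT, all higher, where 33.1% of all genes tested were called, 12.4% higher and 20.7% lower. In S against WT 10 were called, 9 higher and 1 lower, where 36.8% of all genes were called, 15.7% higher and 21.1% lower. With both directions pooled, 10.3% of the tested members were called in M and 34.5% in S. By direction, 10.3% were called higher and 0 lower in M, while in S 31% were called higher and 3.45% lower. The median log2 fold change over the tested members was 0.48 in M and 0.65 in S, against 0.05 and 0.02 over all genes tested, and 25 and 24 of the 29 were positive. Over the 15 neuron markers the median was 0.832 in M and 1.07 in S, so a rise of this size was not particular to the members. The other 22 members did not pass the filter in bodies, so the figures for members leave out those that are low there. Between M and S 2 members were called, where 8.11% of all genes were called, 4.3% higher and 3.81% lower.

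The somatostatin sst1.2, lower in mutant brains, was higher in mutant bodies. Its lowest, median and highest values were 2.78, 4.90 and 6.22 CPM in WT, 4.93, 7.54 and 10.9 CPM in M, and 9.08, 10.3 and 15.7 CPM in S. All S bodies lay above all WT bodies, and 5 of 6 M bodies did. It rose by 1.22 in S (SE 0.207, adjusted p = 0.000318). In M the rise was 0.70 (SE 0.208, adjusted p = 0.0142). Without the 5 bodies low in gh1 the S call held (1.09, adjusted p = 0.00613) and the M call was lost (0.66, adjusted p = 0.0778). With an ovary marker score as a covariate neither was called. This score separates WT (0.701 to 1.51) from M (-1.08 to -0.165) and S (-1.07 to 0.650). With it the whole table kept only 43 calls in M and 220 in S, so this fit cannot decide on sst1.2.

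CRHBP was higher in S bodies than in both other groups. It ran from 6.30 to 9.30 CPM with a median of 7.41 in WT, from 6.37 to 9.74 CPM with a median of 7.51 in M, and from 10.2 to 16.1 CPM with a median of 12.0 in S. The S bodies were separate from the other groups, which overlapped. It rose by 0.66 in S against WT (SE 0.146, adjusted p = 0.00218), and M against S gave -0.65 (SE 0.147, adjusted p = 0.00856). Without the bodies low in gh1 the adjusted p was 0.0691 and 0.057.

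PYY was lower in S bodies. Its lowest, median and highest values were 8.83, 12.0 and 12.8 CPM in WT, 8.45, 11.2 and 13.4 CPM in M, and 4.80, 7.56 and 10.2 CPM in S, with 5 of 6 S bodies below every WT body. It fell by 0.65 in S (SE 0.169, adjusted p = 0.00636) while M against S gave 0.57 (SE 0.170, adjusted p = 0.043). That second call was lost in 9 of 18 fits that left out 1 body: WT body 5, M bodies 1, 2 and 5, and S bodies 1, 2, 3, 5 and 6. Without the bodies low in gh1 the adjusted p was 0.0915 for S against WT and 0.253 for M against S. Markers of the gut summed to 2694 to 3718 CPM in WT, 2801 to 4462 CPM in M and 2923 to 3776 CPM in S, so these ranges overlapped.

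The C-type natriuretic peptide gene nppc was low but higher in both lines, at 0.573, 1.29 and 1.51 CPM (lowest, median and highest) in WT, 1.34, 2.6 and 3.34 CPM in M, and 1.5, 2.51 and 3.10 CPM in S. In each line 5 of 6 bodies lay above every WT body. It rose by 1.03 in M (SE 0.262, adjusted p = 0.00565). In S the rise was 0.98 (SE 0.262, adjusted p = 0.0074). Without the bodies low in gh1 the adjusted p was 0.13 in M and 0.113 in S.

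Opioid precursors were also called in bodies. The nociceptin gene pnoca had medians of 2.62 CPM in WT (2.09 to 4.63), 4.80 CPM in M (2.93 to 7.16) and 4.58 CPM in S (4.22 to 5.4). It rose by 0.68 in M (SE 0.226, adjusted p = 0.0263). In S the rise was 0.65 (SE 0.226, adjusted p = 0.031). Leaving out WT body 1, 2 or 4 ended both calls, as did M body 4 or 6 for M and WT body 5 or S body 1 or 3 for S.

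The related pnocb rose by 1.06 in S (SE 0.346, adjusted p = 0.0233), from a median of 0.582 CPM in WT (0.283 to 1.04) to 1.17 CPM (0.677 to 2.03), with M at 1.03 CPM (0.686 to 1.77). The call ended without S body 5 or 6. The enkephalin gene penka rose by 0.48 in S (SE 0.129, adjusted p = 0.00795), from 8.79 CPM in WT (7.07 to 10.7) to 12.2 CPM (9.46 to 14.0), with M at 9.90 CPM (8.05 to 12.4). PENK rose by 1.08 in S (SE 0.397, adjusted p = 0.0395), from 0.914 CPM in WT (0.737 to 1.77) to 2.22 CPM (1.43 to 4.19), with M at 1.35 CPM (0.530 to 3.0). This last call ended without any 1 of WT bodies 1, 3, 5 and 6 or S bodies 1, 3, 5 and 6. The WT and S ranges overlap for these 3 genes, and no opioid call held without the bodies low in gh1. In that smaller fit the S values were 1.28 for pnocb (SE 0.456), 0.96 for PENK (SE 0.480), 0.36 for penka (SE 0.154) and 0.40 for pnoca (SE 0.272), and pnoca in M was 0.49 (SE 0.292). All 5 opioid genes had a positive log2 change in both lines, as did most of the tested members, with 1 called in M and 4 in S; pdyn was the one not called in either line.

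VIP, whose peptide relaxes gut muscle, rose by 0.74 in S (SE 0.261, adjusted p = 0.0338). Its medians were 3.59 CPM in WT (1.74 to 4.92), 4.23 CPM in M (2.31 to 5.06) and 5.17 CPM in S (3.64 to 10.1). Leaving out WT body 1, 2, 4 or 5, or S body 5, the highest, ended the call. The granin vgf rose by 1.13 in S (SE 0.356, adjusted p = 0.0201), from 3.04, 5.89 and 11.1 CPM (lowest, median and highest) in WT to 9.65, 15.6 and 18.3 CPM in S, with M at 3.32, 11.6 and 16.3 CPM (0.64, SE 0.357, adjusted p = 0.171). The S value of vgf was 0.62 (adjusted p = 0.0668) without the bodies low in gh1, 0.28 (adjusted p = 0.269) with the neuron score and 0.44 (adjusted p = 0.839) with the ovary score as a covariate. The ovary score separates WT from both lines, so the fit with it cannot decide on vgf. The other granin, scg2b, ran from 6.21 to 40.9 CPM in WT and from 5.43 to 56.8 CPM in M and was not called.

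Several of these values move with the summed neuron and pituitary markers of a body library, whose part in the results was tested only through the fits given here. All 5 bodies low in gh1 lay below all the other 13 in scg2b (5.43 to 13.7 against 16.9 to 56.8 CPM), vgf (3.04 to 5.98 against 7.35 to 18.3 CPM) and adcyap1b (6.59 to 12.3 against 14.4 to 36.5 CPM). They also lay below the others in the summed markers of pituitary (0.704 to 1.27 against 14.7 to 31.3 CPM) and hypothalamus (4.17 to 7.94 against 8.28 to 19.7 CPM). Without these 5 bodies, an alternative added after seeing the data, 1 member was called in M (adcyap1b, higher), and 2 in S (sst1.2 higher, ghrh lower), where 11.7% and 14.9% of all genes were called. Between M and S edgeR then called 0 members, with 4 at an unadjusted p under 0.05, where 5.55% of all genes were called. A neuron score, the mean of the scaled log CPM of the neuron markers, was also added as a covariate. With it 4 members were called in M, where 26.1% of all genes were called. Of these, 1 was higher (nppc, shared with the main result) and 3 were lower (CCK, pmchl and scg2b), while the main result had 0 lower. In S 4 were called, 3 higher and shared with the main result, and 1 lower (pmchl), where 19.7% of all genes were called.

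**Figure D5:**
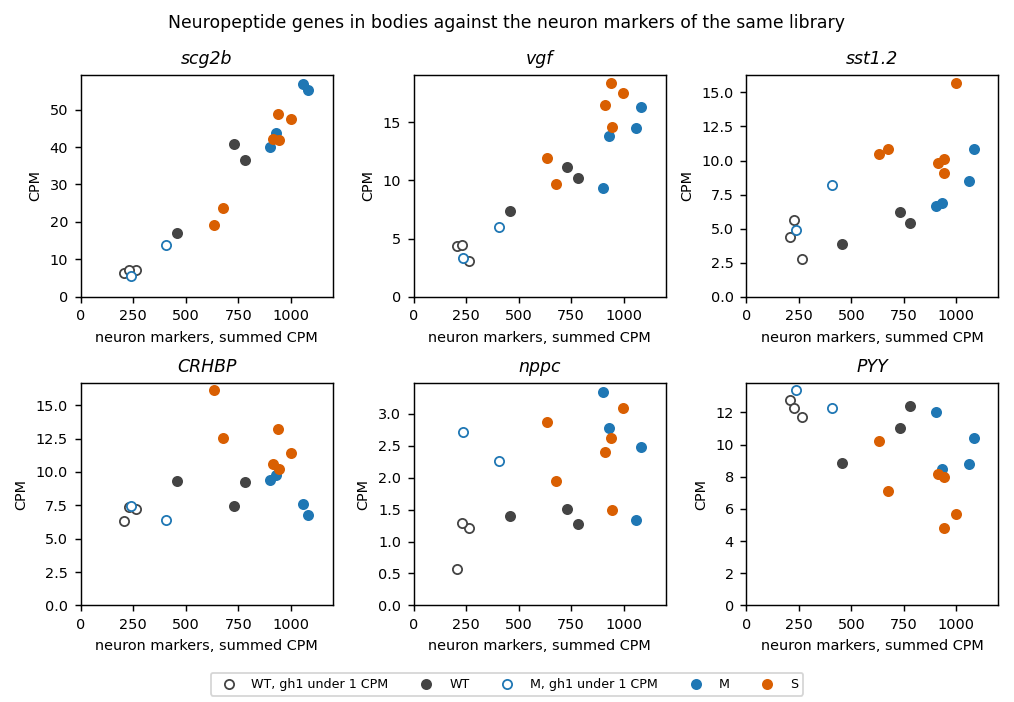
CPM of scg2b, vgf, sst1.2, CRHBP, nppc and PYY in each of 18 bodies against the summed CPM of neuron markers in the same library; colours give the genotype and open points the 5 bodies with gh1 under 1 CPM. The open points sit at the left in every panel, and scg2b and vgf climb to the right. CRHBP is highest in the S bodies, which lie between 634 and 999 CPM of neuron markers.

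Whether a mutation moved a gene differently in brain and body was tested as an interaction in the fit of all libraries. For M 5 of 46 members were called, where 12.3% of all genes were called, 8.69% higher and 3.64% lower. Of these, urp2, gnrh2 and tac3b passed the filter in brains but not in bodies, so their body side rests on 0 to 22 counts a library in WT and M, and the size of the difference is uncertain. The difference (brain change minus body change) was -5.69 for urp2 (SE 0.783, adjusted p = 0.000106), whose level in bodies was 0.0922 to 0.753 CPM in WT and 0.201 to 1.34 CPM in M. It was -1.30 for sst1.2 (SE 0.289, adjusted p = 0.00454) and -3.99 for gnrh2 (SE 0.997, adjusted p = 0.00979), which lay at or below 0.963 CPM in all M and WT bodies. It was -1.35 for vgf (SE 0.450, adjusted p = 0.0482), a call lost in 24 of 29 fits that left out 1 library. It was positive for tac3b, the neurokinin B gene, at 3.77 (SE 1.05, adjusted p = 0.019), where WT bodies held 0 to 1.95 CPM and M bodies at most 0.101 CPM. This call was lost without WT brain 2 and without the bodies low in gh1. WT bodies 3 and 6, at 0.188 and 0 CPM of tac3b, had the lowest ovary sums in WT (1554 and 1169 CPM). The other WT bodies held at least 1.05 CPM of tac3b. The part of the ovary in the tac3b result was not tested.

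For S 7 members were called in the interaction, all with a negative sign, where 9.17% of all genes were called, 6.42% higher and 2.75% lower. They were sst1.2 (-1.72, SE 0.287, adjusted p = 0.000955), CRHBP (-0.85, SE 0.189, adjusted p = 0.00719), vgf (-1.64, SE 0.448, adjusted p = 0.0229), pnocb (-1.39, SE 0.394, adjusted p = 0.0268), CRH (-2.0, SE 0.587, adjusted p = 0.0322), urp2 (-2.24, SE 0.703, adjusted p = 0.0439) and gnrh2 (-3.20, SE 1.03, adjusted p = 0.0484). The last 3 passed the filter in brains but not in bodies. Their body levels were low, up to 2.0 CPM for CRH in S and 0.659 in WT, and their calls were lost without the bodies low in gh1 (adjusted p of 0.0527 for CRH, 0.154 for urp2 and 0.106 for gnrh2). Leaving out 1 library at a time ended the calls of CRH in 10 of 29 fits, urp2 in 14 and gnrh2 in 21. Those of sst1.2, CRHBP, vgf and pnocb held without the bodies low in gh1, although leaving out WT brain 2 ended those of vgf and pnocb, and leaving out S brain 2, S body 5 or S body 6 ended that of pnocb. The median interaction over the tested members was -0.665 in M and -0.685 in S, against 0.00 and 0.06 over all genes tested. Over the 15 neuron markers it was -0.958 in M and -1.04 in S, with 2 called lower in each. The part of the neuron markers in the interactions was not tested.

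The genes that cut and store the peptides were examined next. Of 23 genes of peptide processing and granules, 20 were tested in brains, with 5 called in M and 1 in S, where 10.1% and 10.3% of all genes were called. In M brains 3 fell. These were the granin chga by 0.53 (SE 0.0839, adjusted p = 0.00159), the granule protein gene SCG3 by 0.28 (SE 0.0586, adjusted p = 0.00867) and 1 of the rows listed as SCG5 by 0.23 (SE 0.0687, adjusted p = 0.0433). SCG5 is the chaperone of the convertase PCSK2. The vesicle-priming gene cadps2 rose by 0.44 (SE 0.127, adjusted p = 0.0384) and pcsk1nl, an inhibitor of a convertase, by 0.25 (SE 0.0751, adjusted p = 0.0491). In S brains 1 SCG5 row fell by 0.30 (SE 0.0687, adjusted p = 0.0146) and no other row of the list was called. The median log2 change of the list was -0.01 in M and 0.08 in S. Between M and S, chga (-0.43, SE 0.0783, adjusted p = 0.00367), SCG3 (-0.27, SE 0.0545, adjusted p = 0.00766) and PCSK5 (-0.71, SE 0.202, adjusted p = 0.0378) were lower in M.

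Of 69 receptor genes for these peptides, 52 were tested in brains and 2 were called in each line, a smaller share than the 10.1% and 10.3% called over all genes. In M these were the somatostatin receptor SSTR2, which rose by 1.36 (SE 0.383, adjusted p = 0.0367), and the neuropeptide Y receptor npy8ar, which rose by 1.08 (SE 0.312, adjusted p = 0.0395). In S they were the PACAP receptor ADCYAP1R1 (0.50, SE 0.0951, adjusted p = 0.00512) and the opioid receptor OPRK1 (0.68, SE 0.197, adjusted p = 0.0419), both higher. SSTR2 and ADCYAP1R1 are each the symbol of more than 1 row, and 1 row of each was called. The receptor CRHR1, on which CRH and urocortin act, was not called against WT (0.58 in M, adjusted p = 0.145; -0.53 in S, adjusted p = 0.186), but M against S gave 1.11 (SE 0.222, adjusted p = 0.00956). ADCYAP1R1 (-0.34, adjusted p = 0.0237) and sstr1b (-0.60, adjusted p = 0.0151) were lower in M than in S.

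In bodies 22 processing genes and 24 receptors were tested. Among the processing genes, M bodies had 4 called higher and 2 lower, and S bodies 6 higher and 3 lower, where 33.1% and 36.8% of all genes were called, so these counts lie near the background. PAM, the enzyme that amidates peptides, rose by 0.78 in M (SE 0.0934, adjusted p = 1.94e-05), and S gave a rise of 0.56 (SE 0.0932, adjusted p = 0.000256). QPCT, which cyclises the N-terminal glutamine of peptides, rose by 0.47 and 0.59, and the carboxypeptidase gene CPE rose by 0.83 and 0.99. Of 2 rows listed as FURIN, a convertase, 1 fell by 0.76 and 0.98. A row of the carboxypeptidase gene CPD, also the symbol of more than 1 row, was called lower in each line. Of the receptors 7 were called higher and 1 lower in each line, again near the share over all genes with both directions pooled. By direction, receptors were called higher more often, and lower less often, than all genes. The cholecystokinin receptor CCKAR was the one that fell, by 2.43 in M (SE 0.5, adjusted p = 0.00115), and by 1.62 in S. The VIP receptors VIPR1 (1.81 and 1.99) and VIPR2 (0.71 and 1.07) and the natriuretic clearance receptor NPR3 (0.52 and 0.63) rose in both. The somatostatin receptors SSTR2 (1.42, for 1 row of that symbol) and sstr5 (0.85) were called higher in M. The ovary sum of 1169 to 7150 CPM in WT against at most 785 CPM in the mutants moves with the genotype here, and its part in these results was not tested.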

How the data were processed

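The authors deposited raw counts, 1 table for brains and another for bodies. Both were tested here to hold no negative value and no repeated or missing gene identifier. Poly(A) RNA was sequenced as read pairs of 150 bp, per the labels. STAR and both GRCz11 and GRCz10 are named by the submitters' processing notes; counting program, annotation and strand handling are not given there.

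The main test was the robust quasi-likelihood F test of edgeR 4.0.16 under R 4.3.3, on TMM-scaled counts past edgeR's default filter. All 3 genotypes of a tissue entered 1 fit (18733 genes in brains, 20240 in bodies), and a fit of all libraries (22442 genes) gave the contrasts between tissues. P-values were adjusted by Benjamini-Hochberg over all genes of a fit, with a threshold of 0.05. The fitting code was tested on simulated counts. Values by library are given for urp2 and each member called between genotypes in a tissue, and up to 6 called genes per tissue are named from each other list. The members and lists were chosen with earlier results of these data known; the list of pineal genes was added after seeing values. The alternatives tried were RLE factors, DESeq2 1.42.0, keeping every gene, a fit of the compared groups alone, a block for replicate number, leaving out each library, and an ovary score for bodies. Fits without the bodies under 1 CPM of gh1, and with a neuron score, were added after seeing the data. Depth was similar across libraries. The 3 to 6 libraries a group limit the precision, and so do low counts for genes such as urp2 in M brains. Like-numbered libraries were not treated as pairs.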

Additional observations from a re-analysis of the deposited data

Results flagged for a closer look

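In 6 of 80 gene and group combinations examined, 1 library lay apart from the rest of its group; chance flags about 1 in 20 groups. Only groups of at least 4 libraries were examined, so the 3 WT brains were left out. UCN was at 59.9 CPM in S brain 3, the lowest, against 69.7 to 71.4 CPM in the other S brains. The opioid gene penka was at 83.7 CPM in M brain 4 against 53.8 to 56.3 CPM in the other M brains. In S body 5 sst1.2 was at 15.7 CPM (others 9.08 to 10.8) and VIP at 10.1 CPM (others 3.64 to 5.41). In WT body 2, 1 of the bodies low in gh1, nppc was at 0.573 CPM (others 1.22 to 1.51). GAL was at 5.45 CPM in S body 4 against 3.0 to 3.81 CPM.

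A tested interaction between genotype and tissue put 12 results here, each as the log2 change in brain minus that in body. In M they were urp2 (-5.69), gnrh2 (-3.99), vgf (-1.35), sst1.2 (-1.30) and tac3b (3.77). In S they were gnrh2 (-3.20), urp2 (-2.24), CRH (-2.0), sst1.2 (-1.72), vgf (-1.64), pnocb (-1.39) and CRHBP (-0.852).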

How the results depend on the processing

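No member called between genotypes or in an interaction changed sign in any alternative run. In brains the M calls of urp2 (-5.17 to -4.23), UCN, asip2b, vgf and scg2b held in 16 of 16 alternatives, while gnrh2 in M and GAL in S held in 7 of 16 each. With the replicate number as a block, 8, 5 and 2 members were called in brains (M against WT, S against WT, M against S). There 8.24%, 7.22% and 8.48% of all genes were called. In bodies the block gave 3, 11 and 1, where 32.9%, 39.3% and 7.14% of all genes were called. The block ended the brain calls of UCN and GAL in S and of asip2b between M and S. It also ended the body calls of VIP in S (adjusted p = 0.0534) and of PYY between M and S (adjusted p = 0.0634). It added calls for gnrh2 in S brains and for adcyap1b and tac1 in S bodies. The numbers were not taken as pairs, since not every pair correlated above 0.1: residuals of like-numbered libraries correlated from -0.285 to 0.172 in brains (3 of 10 above 0.1) and from -0.342 to 0.54 in bodies (10 of 18). WT and M bodies, all positive at 0.0942 to 0.54, came nearest to a pairing, as a hint from the data. The highest of these, 0.54 for number 5 and 0.384 for number 2, joined bodies that were all low in gh1. The part of the low gh1 in these correlations was not tested. Using only the groups compared gave 5 members between M and S brains, where 11.3% of all genes were called. Between M and S bodies it gave 1, where 10.8% of all genes were called. Without a filter 5 members were called in M bodies. With the ovary covariate edgeR called 0, 0 and 1 in bodies (0, 5 and 5 at an unadjusted p under 0.05). The whole table then kept 43, 220 and 1715 calls. The ovary score separates WT from both lines, so that fit cannot decide on a change against WT. The neuron covariate gave 4 in M and 4 in S, where 26.1% and 19.7% of all genes were called. Leaving out the bodies low in gh1 gave 1, 2 and 0, where 11.7%, 14.9% and 5.55% of all genes were called. DESeq2 called 12 members in the M interaction, where 18.1% of all genes were called, against 5 and 12.3% in the main fit. Leaving out 1 library at a time gave 5 to 9, 3 to 8 and 2 to 6 members in brains, 2 to 6, 7 to 13 and 1 to 2 in bodies, 40 to 43 between WT tissues, and 3 to 8 and 3 to 11 in the M and S interactions. The share called over all genes moved too. It ran from 5.52% to 14.0%, 4.66% to 12.3% and 5.73% to 13.4% in brains. In bodies it ran from 26.1% to 41.3%, 28.3% to 44.8% and 5.97% to 9.37%. In the M and S interactions it ran from 8.51% to 18.5% and 4.57% to 15.4%. The cause of these changes was not tested, except that the fits with fewer libraries rest on fewer samples. WT has only 3 brains, and urp2 in M brains rests on 3 to 12 counts a library.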
